A study of Rattus norvegicus with 20 samples.

Results

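Islets isolated from male Wistar rats are rarely pure endocrine tissue, and the 10 control arrays of this series show how far one islet sample differed from the next. They are the arrays titled GFP (5 arrays, islets that received an adenovirus carrying green fluorescent protein) or untreated (5 arrays, no virus), out of 20 arrays in all. The other 10 arrays held islets that received an adenovirus for the orphan nuclear receptor Nr4a1 or for its relative Nr4a3 (5 arrays each). All rats were 8 weeks old, all islets were kept in medium with 10% serum and 8 mM glucose, virus was present for 18 h, and islets were collected 48 h after it was added. The labels' treatment protocol names viruses for beta-galactosidase and Nkx6.1 instead, and the groups here follow the titles and characteristics. How many cells took up virus, and which animals lie behind each sample, was not stated.

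For each of 14217 genes, the brightest of its probe sets was taken as log2 intensity, and its standard deviation (SD) over the 10 control arrays was computed. Its Pearson correlation (r) was taken with an exocrine index, the mean log2 intensity of Prss1, Ctrb1, Cpa1 and Cel. Genes were thus chosen by these SDs and correlations, so over the control arrays they are a description without a test. The points of each correlation share 1 array per sample, 1 normalization and the same isolation and culture. In bulk RNA, fewer cells of a type and less RNA per cell cannot be told apart.

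Islets are clusters of hormone-secreting cells, mainly insulin-producing beta cells, embedded in exocrine pancreas. The exocrine acinar cells make digestive enzymes as inactive precursors stored in zymogen granules, and fragments of acinar tissue can remain with islets after the pancreas is digested and the islets are picked. Islets also hold capillary endothelium, resident macrophages, stellate cells and duct cells, and beta cells exposed to inflammatory signals switch on chemokines and acute-phase genes through the transcription factor NF-κB.

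Endocrine markers were high in every control array. The insulin gene Ins1 lay between 14.91 and 15.06 (median 14.96, log2 intensity, SD 0.04) and Ins2 between 14.69 and 14.80 (median 14.74, SD 0.04). The glucagon gene Gcg lay between 14.62 and 14.85 (median 14.77), and Iapp, the islet amyloid hormone, between 14.20 and 14.52 (median 14.42). These 4 genes ranged at most 1.25-fold between control arrays, but 99.96% to 99.99% of genes lay below them, and values at the top of a normalized scale have little room to vary. Pancreatic polypeptide (Ppy) ranged 1.66-fold and somatostatin (Sst) 1.83-fold.

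Several arrays stood apart. Untreated replicates 4 and 5 shared a drop in 481 of 20826 probe sets (2.31%), each at least 0.5 log2 lower in both than in any of the other 8 control arrays, and 0 probe sets were higher in both by that margin. The median difference of these probe sets was -1.16 log2. Nr4a1 replicate 4 had the same drop, with 417 of the 481 probe sets (86.7%) at least 0.5 log2 below the other 4 Nr4a1 arrays, against 3.18% of all probe sets. The probe sets belong to 416 genes, of which 0 are among the genes of the indices and 0 among the digestive enzyme genes. The duct cell, beta cell, immediate early and stress, and hypoxia and glycolysis lists used below each have 1 gene among the 416. Nr4a3 replicate 2 differed from all 19 other arrays by at least 0.5 log2 in 1953 genes lower and 898 genes higher, and its 3′ minus 5′ difference for beta-actin, a measure of RNA integrity, was 4.62 log2, against 1.73 to 2.21 in the control arrays. Counts over all genes for the exocrine index, and for the later fits in the receptor virus arrays, are given with and without these arrays where they change. Counts within gene lists are given so only in part. The shared drop is described further on.

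The 4 acinar enzyme genes moved as 1 block. Prss1 encodes a trypsinogen, a precursor of trypsin, and its log2 intensity was 10.72, 12.32, 9.31, 12.49 and 10.39 in GFP replicates 1 to 5 and 11.84, 10.04, 11.48, 9.92 and 13.40 in untreated replicates 1 to 5. The precursor of chymotrypsin B, Ctrb1, measured 11.36, 12.81, 10.07, 12.87 and 11.01 in GFP replicates 1 to 5 and 12.48, 11.17, 12.77, 10.37 and 13.88 in untreated replicates 1 to 5. Both groups spanned low and high arrays and overlapped, with GFP replicate 3 and untreated replicate 4 lowest and untreated replicate 5 highest. Carboxypeptidase A1, made by Cpa1, had 8.22, 9.16, 6.98, 9.40 and 7.49 in GFP replicates 1 to 5 and 8.94, 7.76, 9.54, 6.97 and 10.71 in untreated replicates 1 to 5. The bile salt-activated lipase Cel had 6.86, 8.66, 6.27, 8.40 and 6.71 in GFP replicates 1 to 5 and 8.13, 6.80, 7.98, 6.34 and 9.80 in untreated replicates 1 to 5. From the lowest to the highest array, Prss1 changed 17.1-fold, Ctrb1 14.0-fold, Cpa1 13.3-fold and Cel 11.5-fold. SDs were 1.32 for Prss1, 1.25 for Ctrb1, 1.23 for Cpa1 and 1.17 for Cel, against a median of 0.14 for all genes.

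**Figure D1:**
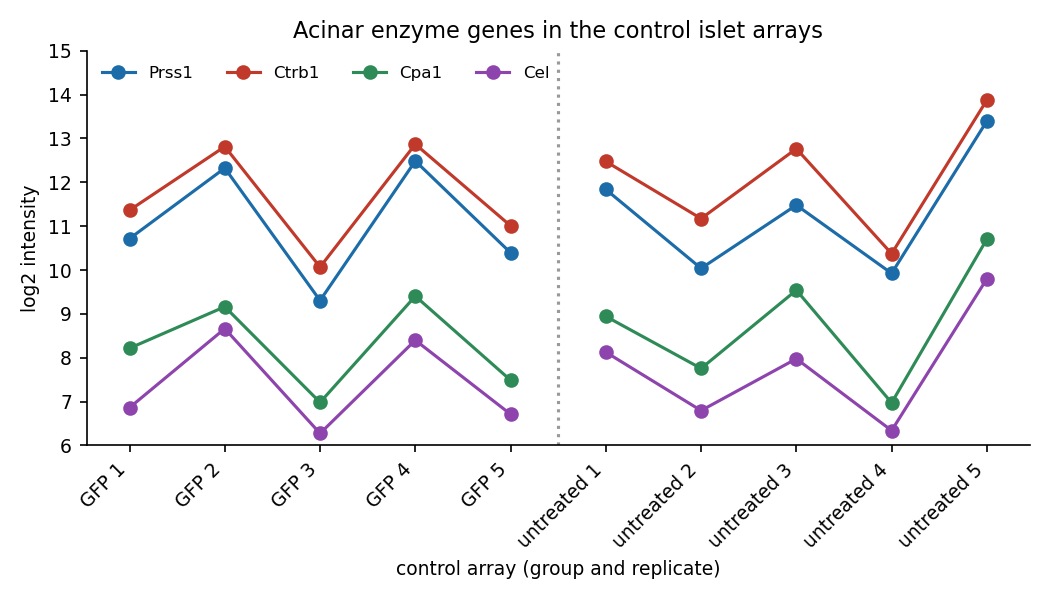
Log2 intensity (vertical axis) of Prss1, Ctrb1, Cpa1 and Cel in each of the 10 control arrays (horizontal axis), GFP on the left and untreated on the right. Each point is 1 array and lines join arrays of 1 group only to guide the eye, since replicates have no order. All 4 genes are high in GFP replicates 2 and 4 and in untreated replicates 1, 3 and 5, and Prss1 runs from 9.31 to 13.40.

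The exocrine index itself was 9.29, 10.74, 8.16, 10.79 and 8.90 in GFP replicates 1 to 5 and 10.35, 8.94, 10.44, 8.40 and 11.94 in untreated replicates 1 to 5. Its mean was 9.58 ± 1.16 in GFP arrays and 10.01 ± 1.39 in untreated arrays (SD, n = 5 each), and the lowest and the highest of the 10 arrays were 13.8-fold apart. In the receptor virus arrays the index was 11.11 to 12.39 with the Nr4a1 virus and 10.16 to 11.08 with the Nr4a3 virus.

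The promoters of 3 of these 4 genes hold both of 2 motifs linked to acinar genes, and that of Cpa1 holds neither. The 250 bases before the annotated start were read from RefSeq (rat assembly GRCr8), and CACCTG, an E-box of the kind bound by basic helix-loop-helix factors, and TGGGAAA, the core bound by the Rbpj family partner of the acinar factor Ptf1a, were searched on both strands. Matches stand in capitals, and the motifs overlap in none of the 3 sequences.
Prss1 (chr4:71330999-71331248, plus strand): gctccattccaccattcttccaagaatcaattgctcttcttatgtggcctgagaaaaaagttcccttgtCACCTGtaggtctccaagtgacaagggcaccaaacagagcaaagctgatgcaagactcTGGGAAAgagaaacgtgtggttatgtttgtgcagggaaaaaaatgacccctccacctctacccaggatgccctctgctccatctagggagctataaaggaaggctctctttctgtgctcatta
Ctrb1 (chr19:56566979-56567228, minus strand): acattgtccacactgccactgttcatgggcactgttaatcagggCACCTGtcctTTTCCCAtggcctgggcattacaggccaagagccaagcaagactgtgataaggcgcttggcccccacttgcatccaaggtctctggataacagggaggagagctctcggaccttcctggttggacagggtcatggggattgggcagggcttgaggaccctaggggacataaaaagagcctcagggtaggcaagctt
Cel (chr3:32289020-32289269, minus strand): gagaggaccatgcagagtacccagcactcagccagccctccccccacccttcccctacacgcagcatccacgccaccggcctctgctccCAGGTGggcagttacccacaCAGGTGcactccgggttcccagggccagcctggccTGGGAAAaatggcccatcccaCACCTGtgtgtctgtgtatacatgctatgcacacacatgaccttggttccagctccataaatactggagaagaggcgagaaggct
Prss1 and Ctrb1 each hold 1 CACCTG and 1 TGGGAAA, and Cel holds 3 CACCTG and 1 TGGGAAA. Among measured digestive enzyme and granule genes with a promoter of this length, 9 of 18 (50%) hold CACCTG, against 15.8% of 11733 measured genes. TGGGAAA occurs in 4 of these 18 (22.2%), against 6.48% of all, and both motifs together in 4 of 18, against 0.963% of all. The index genes Prss1, Ctrb1 and Cel, printed above, are 3 of these 4 and also count among the 9 with CACCTG. A match describes the letters and shows no binding.

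Digestive enzyme genes outside the index followed it closely. Of the other digestive protease genes measured, 8 of 9 had r of at least 0.8 (median r 0.96), and of the lipase, amylase, nuclease and granule genes 9 of 10 did (median r 0.94). Over all genes outside the index, 66 of 14213 (0.464%) reached r of 0.8 and the median r was -0.05. The 2 exceptions had r of 0.31 and 0.65 and SDs under 0.25. Amy2a3, pancreatic amylase, ranged 29.2-fold, and its log2 intensity was 8.30, 9.84, 6.52, 10.23 and 7.66 in GFP replicates 1 to 5 and 9.98, 7.37, 9.56, 7.24 and 11.39 in untreated replicates 1 to 5. Its r was 0.99 (Spearman rho 0.95, r 0.98 without the 2 arrays farthest from the index median, n = 10). Pnliprp2, a pancreatic lipase-related protein, had 6.92, 9.00, 6.30, 8.79 and 6.92 in GFP replicates 1 to 5 and 8.41, 7.16, 8.37, 6.29 and 10.17 in untreated replicates 1 to 5, with r 0.99 (rho 0.95). Gp2, the main glycoprotein of the zymogen granule membrane, followed less tightly, with r 0.90 and an SD of 0.59 left after a straight line on the index was taken out, against 0.24 for Amy2a3.

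Of the 66 genes with r of at least 0.8, 29 also had an SD of at least 0.5, and 17 of those 29 are on the digestive lists. Of the other 12, 5 are on the acinar stress list, Tff2 is on the acinar transcription and secretion list, and 6 are on no list. Prss3b, a trypsinogen, had r 0.99 and changed by 1.29 log2 per log2 of the index. Spink1, the inhibitor that blocks trypsin activated too early, measured 6.68, 9.12, 6.39, 9.20 and 7.17 in GFP replicates 1 to 5 and 8.70, 7.82, 8.09, 6.33 and 11.12 in untreated replicates 1 to 5. It ranged 27.7-fold, with r 0.95 (rho 0.94) and 0.90 without the 2 farthest arrays. The lectin-like secreted protein Reg1a had r 0.94, the trefoil peptide Tff2 0.88 and Gatm, the first enzyme of creatine synthesis, 0.91. Serpinb1a, an intracellular inhibitor of serine proteases, had 7.13, 8.74, 7.37, 8.16 and 7.38 in GFP replicates 1 to 5 and 8.23, 8.38, 8.13, 6.43 and 9.81 in untreated replicates 1 to 5, with r 0.84 (rho 0.72). At the r limit of 0.8 alone, whatever the SD, Reg3a was just inside with r 0.80 and an SD of 1.03. Rxrg, with r 0.80 and an SD of 0.16, was just outside that r limit.

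Acinar transcription and secretion genes varied less. Of 12 measured, 2 reached r of 0.8, and their median r was 0.26 and median SD 0.20. Their signal was also low, with a median of 5.91 log2, against 8.38 and 7.83 for the 2 digestive lists and 7.79 for all genes. The part of low signal in their small SDs and r was not tested. Ptf1a, the transcription factor that defines acinar cells, had 4.38, 4.56, 4.22, 5.05 and 4.28 in GFP replicates 1 to 5 and 4.58, 4.59, 4.97, 4.20 and 5.36 in untreated replicates 1 to 5. It was highest in untreated replicate 5 and GFP replicate 4, with r 0.89 (rho 0.87, and 0.79 without the 2 farthest arrays). Of 8 acinar stress genes, which acinar cells raise when injured, 5 reached r of 0.8. Reg3g, an antibacterial lectin, broke from the index, with 5.66, 9.31, 6.52, 7.80 and 6.27 in GFP replicates 1 to 5 and 7.70, 8.32, 6.23, 6.05 and 9.03 in untreated replicates 1 to 5, r 0.65 and a residual SD of 0.99. Untreated replicate 3 had a high index of 10.44 but only 6.23 for Reg3g, and untreated replicate 2 had a low index of 8.94 and 8.32 for Reg3g.

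**Figure D2:**
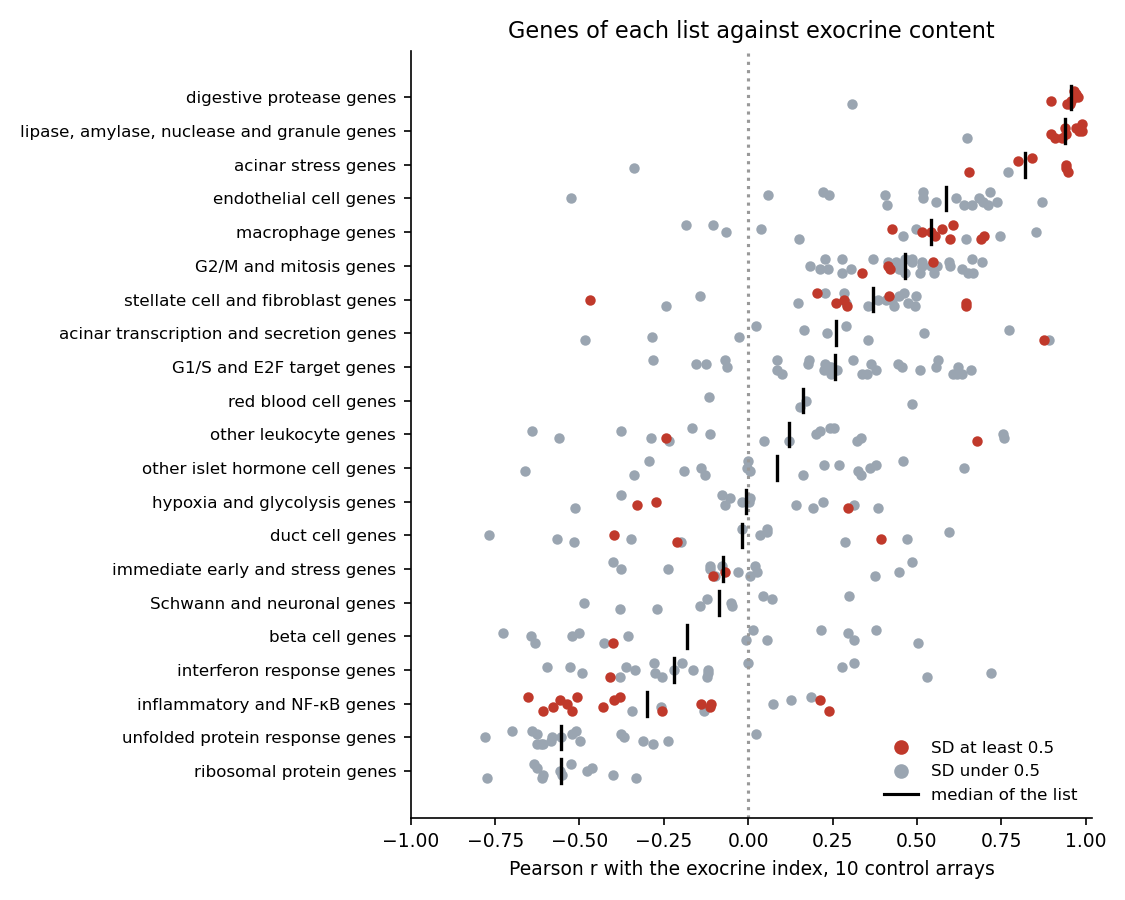
Each point is 1 gene of a list (rows), placed by its Pearson r with the exocrine index over the 10 control arrays (horizontal axis), index genes left out. Red points have an SD of at least 0.5 log2, grey points a smaller one, and black bars are list medians. The digestive enzyme lists sit at medians of 0.96 and 0.94, and the ribosomal protein and unfolded protein response lists at -0.56.

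No gene with an SD of at least 0.5 had r of -0.8 or less with the exocrine index. Of 14213 genes, 50 (0.352%) had r of -0.8 or less, and their SDs ran from 0.04 to 0.35. The largest belonged to Cdhr1, a cadherin-related membrane protein, with 8.38, 8.05, 8.61, 8.40 and 8.86 in GFP replicates 1 to 5 and 8.18, 8.42, 8.16, 8.83 and 7.74 in untreated replicates 1 to 5 and r -0.88 (rho -0.83). Hyou1, a chaperone of the endoplasmic reticulum, measured 10.48, 10.04, 10.90, 10.42 and 10.53 in GFP replicates 1 to 5 and 10.64, 10.77, 10.38, 10.46 and 9.75 in untreated replicates 1 to 5, with r -0.80, and r was -0.51 without the 2 farthest arrays. Of 19 unfolded protein response genes 18 had a negative r (median -0.56, median SD 0.14), and of 12 ribosomal protein genes all 12 did (median -0.56, median SD 0.09). Their median r with the macrophage index described next was -0.49 and -0.60. Among all 14213 genes outside the exocrine index, 6574 had a positive r with that index, and the median r was -0.05. Beta cell genes had a median r of -0.18 over 16 measured genes, 7 of them positive, and other islet hormone cell genes 0.08 over 18.

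These counts depend on single arrays. Without GFP replicate 2 there were 207 genes at r of 0.8 or more and 325 at -0.8 or less. Leaving out untreated replicate 1 gave 113 and 99, untreated replicate 3 gave 126 and 92, and untreated replicate 4 gave 127 and 108. Only the second count moved by over 1.5 times without GFP replicate 1 (76), GFP replicate 3 (80), GFP replicate 5 (78) or untreated replicate 5 (105). Without both untreated replicates 4 and 5 the counts were 86 and 118.

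Macrophage genes formed another block. The macrophage index is the mean of Cd68, Csf1r, Cd163 and C1qa, and it was 6.69, 6.15, 6.10, 6.98 and 6.04 in GFP replicates 1 to 5 and 7.19, 6.28, 6.67, 6.65 and 7.41 in untreated replicates 1 to 5. Its range was 2.58-fold, highest in untreated replicates 5 and 1 and GFP replicate 4. Its r with the exocrine index was 0.67 (rho 0.67), but 0.37 without the 2 farthest arrays (n = 10). C1qa, a chain of complement C1q that tissue macrophages secrete, had 8.57, 7.20, 7.43, 9.04 and 6.98 in GFP replicates 1 to 5 and 9.46, 7.53, 8.26, 8.50 and 9.47 in untreated replicates 1 to 5. It ranged 5.60-fold, with r 0.55 with the exocrine index. Csf1r, the receptor for the growth factor that keeps macrophages alive, had 6.29, 5.68, 5.50, 6.51 and 5.85 in GFP replicates 1 to 5 and 6.79, 5.77, 6.13, 6.17 and 6.84 in untreated replicates 1 to 5. Cd163, the haemoglobin scavenger receptor, stayed between 4.78 and 5.25 and had r of 0.37 with the index it belongs to, so 3 of the 4 genes carry that index.

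Other macrophage genes moved with the index. Of 15 measured outside it, 8 had r of at least 0.8 (median 0.86), against 2.48% of all genes. C1qc, another C1q chain, had 8.08, 6.76, 7.10, 8.63 and 6.71 in GFP replicates 1 to 5 and 9.11, 7.14, 7.82, 8.01 and 9.24 in untreated replicates 1 to 5, with r 0.99 (rho 0.98). Lyz2, macrophage lysozyme, had 8.85, 6.96, 7.11, 9.18 and 6.91 in GFP replicates 1 to 5 and 9.12, 7.25, 8.37, 8.13 and 9.54 in untreated replicates 1 to 5, with r 0.97 (rho 0.98). Acp5, tartrate-resistant acid phosphatase, had 7.70, 6.02, 6.54, 8.49 and 5.98 in GFP replicates 1 to 5 and 9.14, 6.35, 7.07, 7.43 and 8.19 in untreated replicates 1 to 5, with r 0.92. In all 3 genes GFP replicate 4 and untreated replicates 1 and 5 were highest and GFP replicates 2 and 5 were among the lowest.

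Of 19 other leukocyte genes, 2 had r of 0.8 or more and 1 had r of -0.8 or less with the macrophage index, and the median r was 0.16. The T cell receptor subunit gene Cd3e lay between 4.53 and 5.32, and Cd3d between 3.79 and 4.14. Ptprc, the common leukocyte antigen CD45, had an SD of 0.61 and r 0.92.

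Endothelial and proliferation indices had higher r with the macrophage index than with the exocrine index. The endothelial index averages Pecam1, Kdr and Emcn (Cdh5 has no value here) and was 8.36, 8.07, 8.08, 8.64 and 7.75 in GFP replicates 1 to 5 and 8.56, 8.14, 8.09, 8.29 and 8.85 in untreated replicates 1 to 5. Kdr, the main receptor for vascular endothelial growth factor, had 8.83, 8.73, 8.46, 9.37 and 8.19 in GFP replicates 1 to 5 and 9.34, 8.45, 8.59, 8.73 and 9.47 in untreated replicates 1 to 5. The proliferation index averages Mki67, Top2a, Ccnb1 and Birc5 and lay between 6.45 and 7.04 in GFP arrays and between 6.31 and 7.19 in untreated arrays. Mki67, present in dividing cells, had 6.68, 6.27, 6.41, 7.04 and 5.66 in GFP replicates 1 to 5 and 7.05, 6.30, 6.01, 6.26 and 7.13 in untreated replicates 1 to 5. Of 15 endothelial genes outside the index 7 had r of at least 0.8 with it, against 2.58% of all genes. Of all 18 endothelial genes, 9 reached 0.8 with the macrophage and 9 with the proliferation index, and 11 of 19 macrophage genes did with the endothelial index. Both indices were highest in untreated replicates 5 and 1 and GFP replicate 4, and GFP replicate 5 was lowest for the endothelial and untreated replicate 3 for the proliferation index.

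Between indices, r was 0.93 for macrophage and endothelial, 0.92 for endothelial and proliferation and 0.80 for macrophage and proliferation (rho 0.94, 0.93 and 0.79, n = 10). Without the 2 farthest arrays these were 0.87, 0.97 and 0.95. The 2 arrays were picked by the macrophage index for the first pair (untreated replicate 5 and GFP replicate 5). For the other 2 pairs they were picked by the proliferation index (untreated replicates 5 and 3). Picking by the other index of each pair was not done. With the exocrine index, r was 0.63 for the endothelial and 0.48 for the proliferation index, and 0.37 and 0.15 without the 2 farthest arrays. After a straight line on the exocrine index was taken out of both, r was 0.87, 0.91 and 0.73 for the 3 pairs. Without untreated replicates 4 and 5, and with nothing taken out, r was 0.89, 0.88 and 0.69 (n = 8). A proliferation index thus changed 1.85-fold among control islets along with the endothelial index (r 0.92) and the macrophage index (r 0.80). In which cells it lay cannot be told from bulk RNA.

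**Figure D3:**
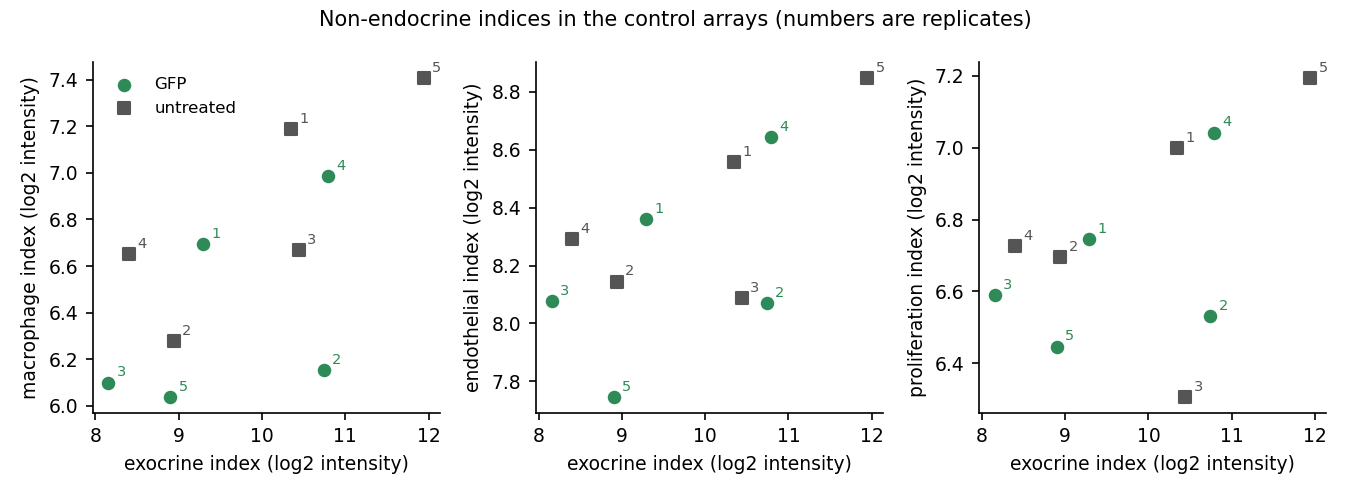
Macrophage, endothelial and proliferation index (vertical axes, log2 intensity) against the exocrine index (horizontal axes, log2 intensity) in the 10 control arrays. Circles are GFP arrays, squares untreated arrays, and numbers are replicates. GFP replicate 2 has an exocrine index of 10.74 but low values on the 3 other indices, and untreated replicate 5 is highest on all 4.

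Of 30 measured G2/M and mitosis genes outside the proliferation index, 23 had r of at least 0.8 with it, against 2.44% of all genes, while 1 of 32 G1/S and E2F target genes did. With the exocrine index 0 of the 34 mitosis genes reached 0.8 (median r 0.46). Cdkn3, a phosphatase of cyclin-dependent kinases, ranged from 5.69 in untreated replicate 3 to 7.54 in untreated replicate 5, with r 0.97 with the proliferation index.

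Stellate cell and fibroblast genes had a median r of 0.37 with the exocrine, 0.64 with the macrophage, 0.69 with the endothelial and 0.70 with the proliferation index over 24 genes. Igf1, a growth factor that stromal cells and macrophages release, had 6.52, 5.36, 5.85, 7.47 and 5.24 in GFP replicates 1 to 5 and 7.46, 5.68, 6.31, 6.23 and 8.04 in untreated replicates 1 to 5. Its r was 0.97 with the macrophage index and 0.65 with the exocrine index. Col1a2, a chain of collagen I, had an SD of 0.56, r of 0.26 with the exocrine index, and its lowest value, 11.04, in GFP replicate 2. Tagln, an actin-binding protein of contractile stromal cells, had 8.72, 7.96, 8.44, 9.04 and 7.87 in GFP replicates 1 to 5 and 8.73, 8.63, 8.56, 8.14 and 10.01 in untreated replicates 1 to 5, with r 0.81 with the macrophage index.

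Of 15 duct cell genes measured, 0 reached r of 0.8 with the exocrine index, and the median r was -0.02. Krt19, a duct keratin, had 7.23, 8.67, 8.35, 7.02 and 8.19 in GFP replicates 1 to 5 and 7.82, 8.71, 7.15, 7.56 and 7.95 in untreated replicates 1 to 5, with r -0.21 (rho -0.31). It was highest in untreated replicate 2 and GFP replicate 2, arrays with an index of 8.94 and 10.74. The mean of the duct list had r of 0.67 with that of the inflammatory list.

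Control probe sets moved with the macrophage block too. The 3′ minus 5′ difference of the hexokinase control probe sets had r of 0.76 with the macrophage, 0.70 with the endothelial and 0.66 with the proliferation index, and 0.54 with the exocrine index over the 10 control arrays. Without the 2 arrays farthest from each index median these were 0.65, 0.57, 0.64 and -0.08. For beta-actin r was 0.65, 0.70, 0.46 and 0.42, and 0.43, 0.36, 0.55 and 0.16 with the same arrays left out. For GAPDH r over all 10 arrays lay between -0.09 and 0.27. The part of RNA quality in the blocks was not tested.

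The most variable gene of all was an inflammatory one. Cxcl1, a chemokine that draws neutrophils, had 10.00, 11.86, 11.14, 5.78 and 11.02 in GFP replicates 1 to 5 and 6.97, 10.97, 9.45, 10.31 and 8.69 in untreated replicates 1 to 5. It ranged 67.8-fold (SD 1.96), lowest in GFP replicate 4 and untreated replicate 1. Its r was -0.52 with the exocrine index and -0.80 with the macrophage index (rho -0.89, and -0.89 without the 2 farthest arrays). Of the genes with the 15 largest SDs, Cxcl1 is the only one on the inflammatory and NF-κB list. Saa3, an acute-phase serum amyloid, had 9.65, 11.24, 11.14, 6.98 and 9.71 in GFP replicates 1 to 5 and 6.76, 11.06, 8.75, 9.56 and 8.44 in untreated replicates 1 to 5, with r -0.82 with the macrophage index. C3, the central complement protein, had 11.47, 12.52, 12.82, 8.83 and 11.61 in GFP replicates 1 to 5 and 8.80, 12.62, 10.77, 11.40 and 10.58 in untreated replicates 1 to 5, with r -0.80. Also among these 15 were Orm1, an acute-phase plasma protein, Slpi, a secreted protease inhibitor, and C4bpa, a complement inhibitor, with r of -0.83, -0.70 and -0.82. Saa3, C3, Orm1, Slpi and C4bpa are on no list used here.

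The inflammatory and NF-κB list as a whole had a median SD of 0.67, and 16 of its 22 genes had an SD of at least 0.5, against 2.05% of all genes outside the exocrine index. With the macrophage index 8 of 22 had r of -0.8 or less, against 2.49% of all genes, and with the exocrine index 0 did. Nfkbia, the inhibitor that NF-κB induces to switch itself off, had 10.59, 11.34, 11.20, 9.43 and 10.89 in GFP replicates 1 to 5 and 9.48, 11.00, 10.33, 10.69 and 10.13 in untreated replicates 1 to 5, with r -0.85. Il1b, an inflammatory cytokine, had 6.90, 8.09, 7.08, 5.43 and 7.07 in GFP replicates 1 to 5 and 5.81, 7.16, 6.41, 6.50 and 6.55 in untreated replicates 1 to 5, with r -0.72. In both genes GFP replicate 4 and untreated replicate 1 were the lowest arrays and GFP replicate 2 the highest. Interferon response genes varied less (median SD 0.22), and 0 of 21 passed 0.8 with the macrophage index in either direction.

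The promoters of Cxcl1 and Nfkbia carry letters of the NF-κB consensus (searched by a 10-letter pattern on both strands, RefSeq, GRCr8). Capitals mark the matches, and the 2 in Cxcl1 lie on opposite strands and overlap.
Cxcl1 (chr14:17479322-17479571, minus strand): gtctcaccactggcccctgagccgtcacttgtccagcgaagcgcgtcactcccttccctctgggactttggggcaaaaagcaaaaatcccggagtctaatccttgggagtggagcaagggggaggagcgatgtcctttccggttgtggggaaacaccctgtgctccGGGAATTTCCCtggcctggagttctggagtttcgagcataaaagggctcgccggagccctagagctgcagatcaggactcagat
Nfkbia (chr6:78597073-78597322, minus strand): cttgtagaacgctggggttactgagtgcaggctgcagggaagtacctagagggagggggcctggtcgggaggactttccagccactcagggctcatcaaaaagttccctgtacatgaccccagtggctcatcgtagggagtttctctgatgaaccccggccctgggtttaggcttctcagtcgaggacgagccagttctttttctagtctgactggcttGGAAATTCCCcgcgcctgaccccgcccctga
The consensus occurs in 9 of 16 promoters of the inflammatory list (56.2%), 2 of 15 of the macrophage list and 0 of 18 of the digestive enzyme list, against 4.28% of 11733 measured genes. These are letters only, and binding was not measured.

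**Figure D4:**
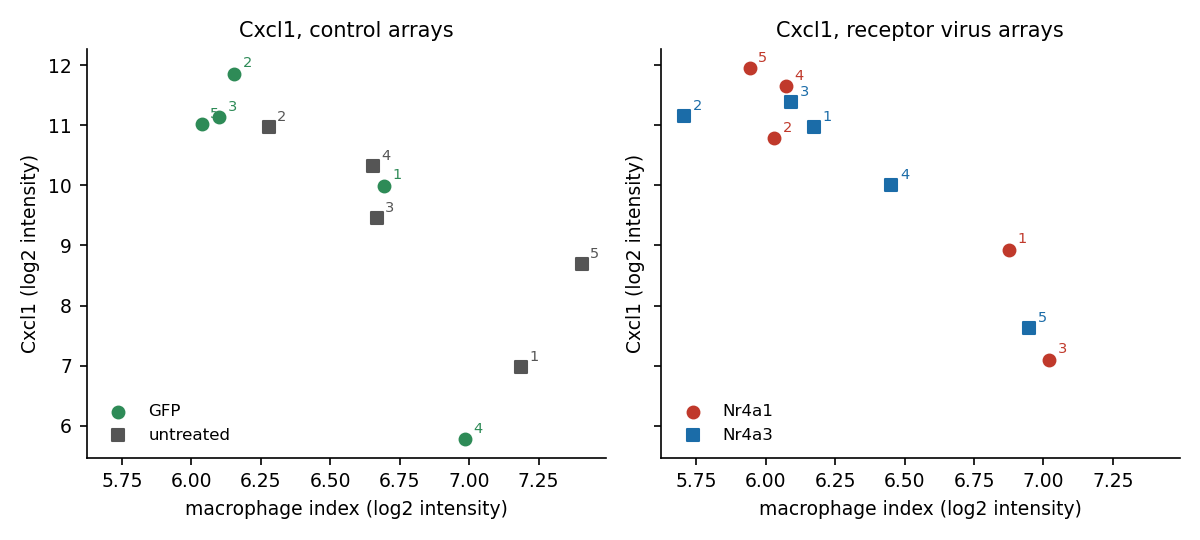
Cxcl1 (vertical axis, log2 intensity) against the macrophage index (horizontal axis, log2 intensity) in the 10 control arrays (left) and the 10 receptor virus arrays (right), with numbers for replicates. In both sets arrays with a higher macrophage index have less Cxcl1, with r of -0.80 and -0.93.

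Some genes varied with little relation to acinar content. Of 291 genes with an SD of at least 0.5 (2.05%), 99 (0.697%) had r between -0.3 and 0.3 with the exocrine index. The largest was Gabrp, a subunit of the GABA-A receptor found in epithelia, with 6.37, 8.06, 7.44, 5.49 and 5.86 in GFP replicates 1 to 5 and 8.38, 8.73, 5.64, 6.83 and 7.13 in untreated replicates 1 to 5 and r -0.08 (rho -0.19). Slc34a2, an epithelial phosphate transporter, was highest at 8.55 in untreated replicate 2 and 8.08 in GFP replicate 2, with r 0.23. Neither followed the macrophage index (r -0.09 for Gabrp and -0.04 for Slc34a2).

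Of the 99 genes, 50 belong to the drop shared by untreated replicates 4 and 5, as do 62 of the 291. Among all 14217 genes, 147 had the drop in their brightest probe set. A drop in untreated replicates 4 and 5 raises a gene's SD. These arrays had a low and the highest exocrine index, so such a drop also tends to keep r small. Both shares are thus partly set by how the genes were chosen. Chd4, the ATPase of a nucleosome remodelling complex, had 10.68, 10.58, 10.76, 10.65 and 10.65 in GFP replicates 1 to 5 and 10.62, 10.46, 10.71, 8.46 and 8.32 in untreated replicates 1 to 5. Atrx, a chromatin remodeller, had 10.11, 9.97, 10.10, 10.05 and 9.98 in GFP replicates 1 to 5 and 10.20, 9.75, 10.04, 7.91 and 7.94 in untreated replicates 1 to 5, and Kmt2a, a histone methyltransferase, had 9.60, 9.48, 9.37, 9.43 and 9.36 in GFP replicates 1 to 5 and 9.54, 9.03, 9.43, 7.51 and 7.22 in untreated replicates 1 to 5. In each of the 3 genes both arrays lay below every other control array, although their exocrine indices were 8.40 and 11.94. In the 8 control arrays without them, 212 genes had an SD of at least 0.5. Of these, 54 had r between -0.3 and 0.3, and 28 of the 54 were among the 99.

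Many of these genes have other probe sets without the drop. A second Chd4 probe set differed by -0.05 log2 between untreated replicates 4 and 5 and the other 8 arrays, against -2.25 for the brightest. For Kmt2a the difference was -2.04 with the brightest set and -0.13 with another. For Setd5, a SET domain protein, it was -2.02 with the brightest and -0.10 with another. All 5 Atrx probe sets were lower, with differences of -1.02 to -2.10. These 4 genes were picked as examples after their values were seen. Of the 416 genes, 346 have another probe set with a mean of at least 7 log2 that did not meet the margin, and in 306 of them at least 1 such set lay within 0.25 log2 of the other 8 arrays on average. Where these probe sets lie on their transcripts was not used here.

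**Figure D5:**
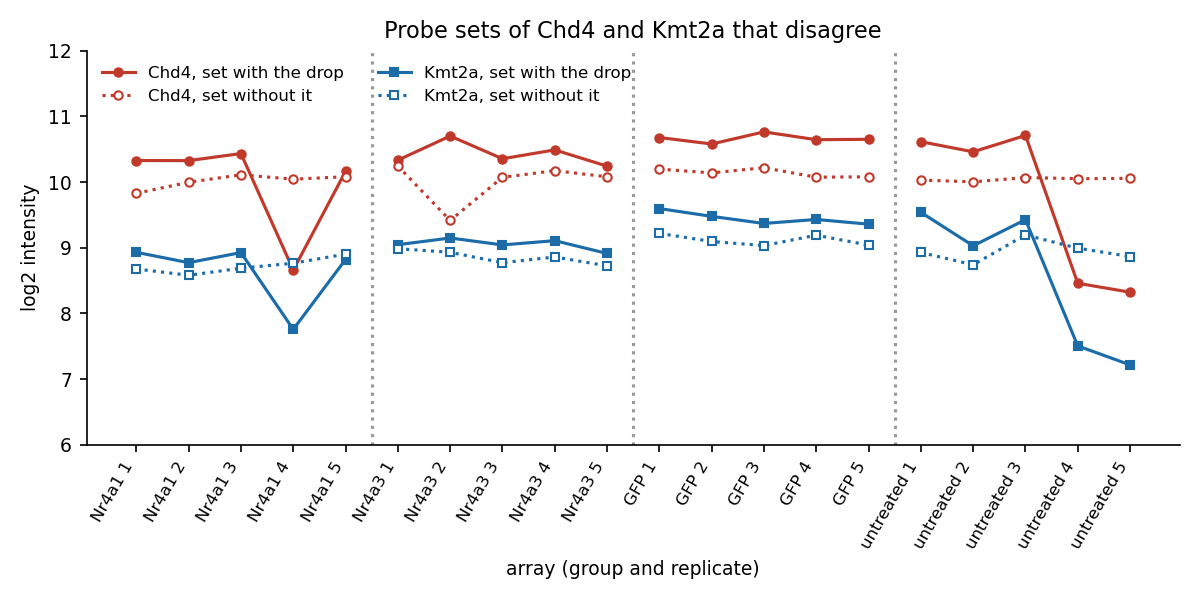
Log2 intensity (vertical axis) of 2 probe sets each of Chd4 and Kmt2a in all 20 arrays (horizontal axis). Filled symbols with solid lines are the sets that drop in untreated replicates 4 and 5 and Nr4a1 replicate 4, and open symbols with dotted lines are sets of the same genes that do not. Chd4 falls to 8.46 and 8.32 in the untreated pair with one set and differs by -0.05 log2 with the other.

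The SDs and correlations of the control arrays did not use the 10 receptor virus arrays, so slopes on each index were tested there over all genes. Some genes named from these fits were picked by their p or slope in them, and the brightest probe set of a gene was taken over all 20 arrays. In limma, each gene was fitted with a mean for each virus and a slope on an index, in log2 per log2, and p-values were adjusted over all genes. These arrays may share islet isolations with the control arrays, and no difference between groups enters the slope.

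For the macrophage index, 36 of 14213 genes rose with it (0.253%) and 44 fell (0.31%) at an adjusted p under 0.05. All 36 had a positive and all 44 a negative r with the index in the control arrays, and 26 of each count had r past 0.8. Among all 14213 genes, 7239 had a positive r there, 2.48% had r of 0.8 or more and 2.49% r of -0.8 or less. C1qc was 8.37, 6.88, 8.82, 6.86 and 6.28 in Nr4a1 replicates 1 to 5 and 6.91, 6.06, 6.81, 7.52 and 8.36 in Nr4a3 replicates 1 to 5. Its slope was 1.99 ± 0.11 (SE, limma adjusted p = 6.7e-05). Acp5 rose with a slope of 2.21 ± 0.14 (limma adjusted p = 0.000119) and Lyz2 with 1.71 ± 0.26 (limma adjusted p = 0.0166). Tagln was the 1 stromal list gene of 24 called, at 1.40 ± 0.21 (limma adjusted p = 0.018). Without Nr4a3 replicate 2, 2 stromal list genes rose and 1 fell. Of 15 macrophage list genes outside the index 5 rose and 0 fell, and without Nr4a3 replicate 2, 7 rose and 0 fell.

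Several inflammatory genes fell with the macrophage index in these arrays. Cxcl1 was 8.93, 10.79, 7.10, 11.65 and 11.95 in Nr4a1 replicates 1 to 5 and 10.96, 11.15, 11.39, 10.00 and 7.62 in Nr4a3 replicates 1 to 5. Its slope was -3.47 ± 0.42 (SE, limma adjusted p = 0.00521). Nfkbia had a slope of -1.15 ± 0.12 (limma adjusted p = 0.00265) and Il1b -1.43 ± 0.17 (limma adjusted p = 0.00521). S100a9, a calcium-binding protein of neutrophils, fell with -1.65 ± 0.14 (limma adjusted p = 0.000797). Saa3 and C3 did not pass, with slopes of -2.74 (limma adjusted p = 0.118) and -1.94 (limma adjusted p = 0.17). Of 22 inflammatory list genes 7 fell and 0 rose, and without Nr4a3 replicate 2, 11 fell and 0 rose. The list mean had r of -0.93 with the index (rho -0.90, -0.84 without the 2 farthest arrays, n = 10).

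Single arrays moved these counts. Without Nr4a3 replicate 2, 148 rose (1.04%) and 181 fell (1.27%). Higher and lower counts were 21 and 28 without Nr4a1 replicate 2, 14 and 17 without Nr4a1 replicate 3, 20 and 27 without Nr4a1 replicate 4, 24 and 25 without Nr4a1 replicate 5, and 10 and 9 without Nr4a3 replicate 5. With the replicate number as a block they were 4 and 7. The hexokinase 3′ minus 5′ difference had r of 0.81 with the macrophage index in these arrays (rho 0.84). The other control probe sets went the other way, with r of -0.57 for beta-actin and -0.49 for GAPDH. Without Nr4a3 replicate 2, r was 0.78 for hexokinase, -0.57 for beta-actin and -0.17 for GAPDH. The part of RNA quality in the slopes was not tested.

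Over the receptor virus arrays r between indices was 0.06 for macrophage and endothelial, 0.10 for endothelial and proliferation and -0.06 for macrophage and proliferation (rho 0.10, -0.01 and 0.05, n = 10), and the difference from the control arrays was not tested. Igf1 had a slope of 1.22 ± 0.35 on the macrophage index there (SE, limma adjusted p = 0.21).

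For the exocrine index, limma called 0 of 14213 genes in either direction (0%), with 254 at an unadjusted p under 0.05. Without Nr4a3 replicate 2, 18 rose (0.127%) and 0 fell. All 18 had r of at least 0.8 in the control arrays, against 0.464% of all genes. They were Pnliprp2, Pnliprp1, Pnlip, Clps, Pla2g1b, Sycn, Zg16, Cela1, Cela2a, Cela3b, Ctrc, Ctrl, Cpb1, Prss2, Prss3, Prss3b, Prss3bl1 and Tff2, and 15 of them are on the digestive lists. Pnliprp2 had a slope of 1.07 (limma adjusted p = 0.0773) with all 10 arrays and 1.15 ± 0.07 (SE, limma adjusted p = 0.000484) without that replicate. Array weights gave 21 higher and 1 lower.

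For the proliferation index limma called 0 genes (0%), with 343 at an unadjusted p under 0.05, and 2 rose without Nr4a3 replicate 2 (0.0141%). These 2, Cks2 and Spc25, are named after their values were seen and have roles in the cell cycle kinase and the kinetochore. For the endothelial index limma called 0 of 14214 (0%), with 53 at an unadjusted p under 0.05.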

How the data were processed

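RNA of 20 islet samples was measured on Affymetrix rat arrays, 1 array per sample. The authors deposited 1 table of probe set intensity values on a linear scale, made with RMA (version not stated) per the submitters' processing notes. Scan dates were not used here. Values were log2-transformed. Of 31099 probe sets, 20832 carry 1 gene symbol, 436 several and 9831 none, per the array's probe table, 57 are control probe sets, and the brightest probe set stood for each of 14217 genes. Control arrays were described by SD and correlation in Python 3.11.15. Slopes in the receptor virus arrays were fitted with limma 3.58.1 in R 4.3.3 with Benjamini-Hochberg adjustment, after the script was tested on simulated data. The labels call replicates biological without naming animals, so p-values measure the spread between these samples. Arrays limit the precision by their number.

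The arrays, indices and 21 gene lists (358 of 422 entries measured) were chosen with earlier results of these data known. Genes were named by rule: index genes, the 15 largest SDs, the 10 highest r (SD at least 0.5, outside digestive lists) and 10 lowest r (SD at least 0.25), the 12 largest SDs with r between -0.3 and 0.3, up to 4 genes by SD and 4 by receptor array p per list, and per index 6 called genes each way. Cell type markers, genes next to a threshold and probe set examples were named besides. Whether replicate numbers pair the arrays is not known. Deviations of same-numbered arrays correlated between -0.30 and 0.50, and differently numbered arrays were not compared, so these values cannot decide it. Alternatives were leaving out each array, a replicate block, other normalization, probe set and intensity choices, Spearman correlation, residuals from group means, array weights and a robust variance. Leaving out untreated replicates 4 and 5, or Nr4a3 replicate 2 with Nr4a1 replicate 4, was chosen after seeing the data.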

Additional observations from a re-analysis of the deposited data

Results flagged for a closer look

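Among 126 values tested for 1 array far from the other 4 of its group (Dixon's gap above 0.71 of the range), 5 stood out, and chance gives about 1 in 20. Mitosis genes averaged 7.14 in GFP replicate 4, and its Ccnb1, the mitotic cyclin B1, was 7.09, against group medians of 6.56 and 6.52. Beta cell genes averaged 11.68 in GFP replicate 2, against a median of 11.79. Acinar transcription and secretion genes averaged 6.50 in untreated replicate 5, the array with the highest exocrine index, against a median of 6.13. Sst, the somatostatin gene, was 12.16 in untreated replicate 2, against a median of 12.95.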

How the results depend on the processing

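Over the control arrays, counts of genes at r of 0.8 or more and -0.8 or less were 66 and 50, and 291 had an SD of at least 0.5. Leaving out each array gave 46 to 207, 64 to 325 and 231 to 313. Brighter genes alone gave 31 at r of 0.8 or more and 173 by SD, with fewer genes tested. Residuals from group means gave 80 at -0.8 or less, leaving out the 2 farthest arrays 241, and leaving out untreated replicates 4 and 5 118. With the replicate block, whose numbers may or may not pair the arrays, 709 and 1001 genes passed, from fewer degrees of freedom. In the receptor virus arrays, the exocrine slope called 0 to 18 higher and 0 lower when each array was left out, 21 and 1 with array weights, 6 higher among brighter genes, and 18 higher without Nr4a3 replicate 2 and Nr4a1 replicate 4. The proliferation slope called 0 to 2 higher when each array was left out and 14 with array weights. The macrophage slope called 10 to 148 higher and 9 to 181 lower when each array was left out, 230 and 242 with array weights, 103 and 139 without both doubtful arrays, 14 and 24 among brighter genes, and 4 and 7 with the replicate block. The replicate block changed no other call from 0. The cause was not tested. Of 489 correlations of named genes with the exocrine index past 0.8 under alternatives, 25 came below 0.8. Of 332 slopes of called genes, 61 lost the threshold. None of these correlations and slopes changed sign. Correlations of named genes with the other indices were not counted in this check. With 10 arrays in each set, differences between neighbouring correlations are not resolved.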
